A study of Mus musculus with 12 samples.

Results

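Transcripts of the anaphase-promoting complex/cyclosome (APC/C), the ubiquitin ligase that drives the exit from meiosis I, were compared between WT and Zar1/2-null mouse oocytes. The group held 10 genes of the 23230 in the deposited table, selected by their names, with earlier results of these data known. They were 8 subunit genes of the ligase core, Anapc1, Anapc2, Anapc4, Anapc5, Anapc10, Cdc16, Cdc23 and Cdc27, and its 2 co-activator genes, Cdc20 and Fzr1. All 10 reached a level of 1 FPKM (sequenced fragments per length of transcript and per library size) in at least 1 library and were therefore among the 11502 genes tested.

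RNA was sequenced by Smart-seq2, which copies polyadenylated RNA of a few cells into cDNA with an oligo-dT primer, in 12 libraries of 10 pooled oocytes each. Every group had 2 libraries, and the 6 groups were growing oocytes (females of 13.5 days per the labels, a younger age in the study's methods), full-grown oocytes with an intact germinal vesicle, the GV stage (females of 21 days, 44 h after PMSG) and ovulated oocytes (named MII, 16 h after hCG), each from WT and from Zar1/2-null females. All females were of a C57BL6/ICR hybrid strain, and no other treatment was labelled. The labels give neither age nor PMSG for the ovulated oocytes. In the study's methods, females yielding ovulated oocytes received PMSG 44 h before hCG, in the same age range as for GV oocytes. Zar1 and Zar2 encode RNA-binding proteins of the oocyte, and the null alleles were made with CRISPR/Cas9 in the whole animal, so the somatic cells of the follicle carried them too. The MII groups were defined by the time of collection, and the labels do not give the meiotic stage reached by each ovulated oocyte. The study describes ovulated null oocytes as still in meiosis I, so for them the name marks the time of collection, and genotype and meiotic stage cannot be told apart in these libraries. By RT-qPCR the study found the decay of selected mRNAs unaffected in WT oocytes held in meiosis I with nocodazole. No library here comes from that experiment. Because oocytes were pooled, less RNA in every oocyte and a stronger loss in some of them cannot be told apart. Nothing in the labels says that the 2 libraries of a group came from separate females, so the p-values measure the spread between libraries, which may be technical.

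The APC/C attaches ubiquitin to cyclin B and securin, which marks them for the proteasome and lets homologous chromosomes separate. Anapc2 is the cullin-like subunit that holds the catalytic RING partner, Anapc1, Anapc4 and Anapc5 form the platform, Cdc16, Cdc23 and Cdc27 are tetratricopeptide-repeat subunits of the arm that receives the co-activators, and Anapc10 helps to bind substrates. In the GV oocyte, the ligase with Fzr1 (also called CDH1) keeps cyclin B low and so helps to hold prophase arrest, whereas with Cdc20 it acts at the metaphase-to-anaphase transitions. Maternal mRNAs of the oocyte are stored and then translated or removed according to signals near their 3′ ends, among them the polyadenylation signal and U-rich cytoplasmic polyadenylation elements.

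For that reason the 3′ ends were read from the mm9 genome (GENCODE M1 models) for the genes on which the comparisons below turn. The last 60 bases of the 3′ untranslated region (UTR) were searched on the sense strand for the polyadenylation signal, AATAAA or ATTAAA, and for the letters of a cytoplasmic polyadenylation element, TTTTAT or TTTTAAT. Copies may overlap each other. Stretches holding the matches are printed 5′ to 3′ in the sense of the transcript, with the matched letters in capitals.

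Cdc20 (chr4:118105519-118105548, minus strand): tgtTTTTATTTTATtttttctAATAAAgtt

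Cdc27 (chr11:104366258-104366287, minus strand): ctaaccaagaaTTTTAATttattcgtcttg

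Anapc5 (chr5:123237478-123237507, minus strand): cgatgtacataaaATTAAAATAAAttattt

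Anapc10 (chr8:82301191-82301220, plus strand): caggaagtgAATAAAtaacATTAAAtgtca

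The letters of a cytoplasmic polyadenylation element stood in this window in 2 of the 10 genes, Cdc20 and Cdc27, and in 13.2% of the 10114 tested genes with a 3′ UTR long enough. A polyadenylation signal stood there in 8 of the 10, against 78.5% of those genes, and was absent in the Cdc27 and Fzr1 models. The Cdc27 gene spans chr11:104364059-104411934 and runs on past the printed stretch, so the model used stops short of its annotated 3′ end. For Cdc27 both the match and the missing signal hold for that model only. The whole Cdc20 3′ UTR was 62 bases long, and only 3.08% of tested genes had a shorter UTR (median 826 bases). The other printed genes had 3′ UTRs of 338 bases (Anapc5), 661 bases (Cdc27) and 2159 bases (Anapc10), and that of Fzr1 was 1287 bases. Letter matches are a description of these gene models and were not tested against expression. The Cdc20 gene spans chr4:118105506-118109957, Fzr1 chr10:80828967-80841261, Anapc5 chr5:123237478-123271348 and Anapc10 chr8:82235719-82301220. Since reads from opposite strands cannot be told apart here, the shared exonic bases limit 2 genes: 13.3% of those of Cdc23 lie opposite Kif20a, and 2.84% of those of Cdc20 lie opposite Elovl1.

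The libraries carried oocyte RNA: all 10 oocyte markers examined were present, with a summed level between 3615 and 19499 FPKM, whereas 12 granulosa and cumulus markers summed to between 5.13 and 32.1 FPKM, 8 immune markers to between 0.498 and 3.31 FPKM and 8 epithelial and oviduct markers to between 15.5 and 49.4 FPKM. Zar1l, which is Zar2 in this table, averaged 642 FPKM in growing WT oocytes and 15.3 FPKM in growing Zar1/2-null oocytes, and 519 against 20.3 FPKM at the GV stage. By the MII stage it was low in both genotypes, at 3.92 against 1.19 FPKM. Zar1 RNA remained in the null libraries (433 FPKM against 664 FPKM in WT growing oocytes), so its level does not check the labels. The table holds ERCC-scaled values: each library had been multiplied by a factor derived from synthetic ERCC spike-in RNA, which ranged from 0.225 in a WT MII library to 1 in the WT growing libraries. Depth per gene is unknown, because no counts were used or can be recovered. The test was limma's moderated fit to log2(FPKM + 1) in the 12 libraries, with Benjamini-Hochberg adjustment over the 11502 genes, and called at an adjusted p under 0.05. The added 1 FPKM makes the log2 difference of a low gene smaller. An exact permutation test of 2 libraries against 2 cannot give a p below 0.333.

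In WT growing oocytes the co-activator Cdc20 stood highest of the 10 genes, at 108 ± 15.7 FPKM (SD, n = 2 here and below), and Anapc1 lowest, at 9.0 ± 0.651 FPKM. FPKM is a level per transcript length, so these levels can be ordered between genes. Anapc4 (84.3 ± 3.07 FPKM) and Anapc5 (73.5 ± 10.1 FPKM), the platform subunits, followed Cdc20, and the libraries of Anapc4 and Anapc5 lay close together (82.1 and 86.5 FPKM against 66.3 and 80.6 FPKM). Cdc27 came next at 52.9 ± 5.78 FPKM, then Fzr1 at 35.8 ± 7.01 FPKM and Anapc10 at 25.3 ± 1.61 FPKM. Cdc16 (17.0 ± 0.145 FPKM), the catalytic Anapc2 (13.2 ± 2.53 FPKM) and Cdc23 (12.3 ± 1.16 FPKM) ended the order above Anapc1, and the libraries of Anapc2 and Cdc23 overlapped. Against all tested genes, Cdc20 lay at the 90.3rd percentile of the WT growing means and Anapc1 at the 50.6th. In WT MII oocytes the order had changed: Cdc20 was still highest (30.1 ± 2.28 FPKM), but Anapc10 was now second (17.8 ± 3.21 FPKM, 90.8th percentile), then Cdc27 (14 ± 1.44 FPKM), and Fzr1 lowest at 0.930 ± 0.334 FPKM (47.7th percentile). In Zar1/2-null MII oocytes Anapc5 stood at the 90.9th percentile instead of the 68.9th, and Fzr1 at the 80.8th.

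**Figure D1:**
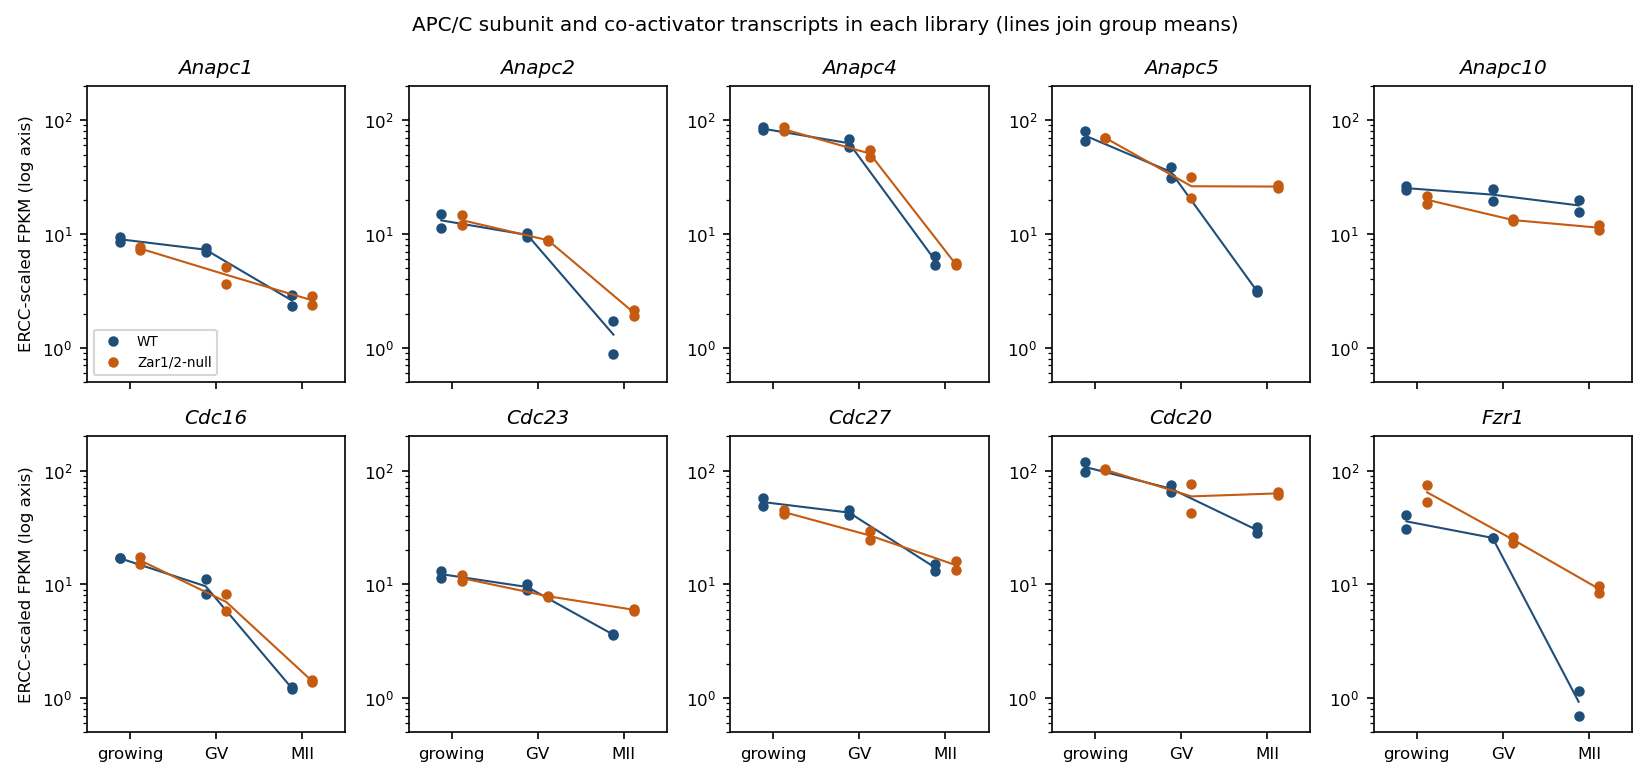
Level of each of the 10 transcripts in every library (ERCC-scaled FPKM, log axis) at the growing, GV and MII stages, in WT (blue) and Zar1/2-null (orange) oocytes, with lines joining group means. At MII the null points of Anapc5 and Fzr1 sit far above the WT points, those of Anapc10 lie below, and Anapc1, Anapc4 and Cdc27 overlap.

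Of the 3 stages, the ovulated oocytes had the most calls between genotypes among the 10 genes, though not over all genes, where more were called both in growing oocytes and at GV. Of the 10 genes, 4 were higher in Zar1/2-null than in WT MII oocytes (Anapc5, Fzr1, Cdc20 and Cdc23) and 1 was lower (Anapc10). Over all 11502 genes, 21.5% were called higher and 10.3% lower. The median log2 difference was 0.26 over the 10 genes and 0.06 over all genes. By the 3-fold rule of the study's methods, with group means under 1 FPKM set to 1, 2 of the 10 genes were higher (Anapc5 and Fzr1) and none lower, against 7.49% and 1.32% of all genes. None of the 10 passed this rule in growing oocytes (0.982% of all genes higher, 3.54% lower) or at GV (0.461% higher, 4.2% lower). The null libraries lay above both WT libraries for 6 of the 10 genes at MII and below them for 1, against 43.5% and 27.8% of all genes.

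Both co-activators were higher in the null oocytes. Cdc20 read 28.5 and 31.7 FPKM in the WT MII libraries and 65.4 and 60.8 FPKM in the null MII libraries. Each null library was above each WT library, and the mean was 2.1-fold higher (log2 difference 1.05, SE 0.23, adjusted p = 0.00493). Fzr1 read 0.694 and 1.17 FPKM in WT and 8.43 and 9.77 FPKM in the null libraries. The groups were far apart, with a null mean of 9.10 ± 0.948 FPKM (9.78-fold, log2 difference 2.39, SE 0.20, adjusted p = 3.25e-06). The WT mean of Fzr1 lay under 1 FPKM, so the fold rests on a low denominator.

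Among the platform subunits, Anapc5 alone was called. The WT MII libraries read 3.11 and 3.21 FPKM and the null MII libraries 25.6 and 26.7 FPKM, with a gap much wider than the spread within either genotype (8.27-fold, log2 difference 2.71, SE 0.20, adjusted p = 9.42e-07). Its platform partners did not pass the test. Anapc4 read 5.37 and 6.35 FPKM against 5.54 and 5.29 FPKM (log2 difference -0.09, 95% interval -0.42 to 0.24). Anapc1 read 2.33 and 2.90 FPKM against 2.36 and 2.86 FPKM (log2 difference 0.00, 95% interval -0.36 to 0.36). For the catalytic Anapc2 the null values (2.15 and 1.91 FPKM) lay above the WT values (0.887 and 1.72 FPKM), with a log2 difference of 0.42 (SE 0.19) and an adjusted p of 0.127. Without the second WT MII library, Anapc2 was called (log2 difference 0.68, adjusted p = 0.0321).

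The arm subunits differed among themselves. Cdc23 read 3.57 and 3.65 FPKM in WT and 5.85 and 6.10 FPKM in the null libraries, which did not overlap (1.66-fold, log2 difference 0.60, SE 0.13, adjusted p = 0.00486). Kif20a, whose exons lie partly opposite Cdc23, moved with it, at 5.35 and 5.49 FPKM in WT and 10.7 and 12.6 FPKM in the null MII libraries, and its part in the Cdc23 value was not tested. Cdc16 read 1.25 and 1.21 FPKM against 1.43 and 1.38 FPKM (log2 difference 0.11, 95% interval -0.28 to 0.50). Cdc27 read 13.0 and 15.1 FPKM against 13.5 and 16.0 FPKM (log2 difference 0.07, 95% interval -0.29 to 0.42), so the genotypes overlapped.

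Anapc10, the substrate-binding subunit, went the other way. It read 20.1 and 15.6 FPKM in the WT and 12 and 10.7 FPKM in the null MII libraries, a mean 1.57-fold lower in the null (log2 difference -0.60, SE 0.17, adjusted p = 0.0205). The groups did not overlap, but the call depended on the fit: the adjusted p was 0.0600 with no filter on low genes, 0.166 without the first WT MII library, 0.0533 without the first null MII library and 0.118 without the second. When the ERCC factors were divided out, so that only relative abundance counted, 3 genes remained higher (Anapc5 2.72, Fzr1 2.81 and Cdc20 0.83 as log2 differences), Cdc23 no longer passed (0.46, adjusted p = 0.0514), and Anapc10 (-0.87, adjusted p = 0.000506) was joined by Anapc4 (-0.33, adjusted p = 0.0430) among the lower genes. Over all genes 24.6% were then called higher and 23.4% lower. Scaling by library medians also gave 3 higher and 2 lower, beside 24.7% and 27.6% of all genes.

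**Figure D2:**
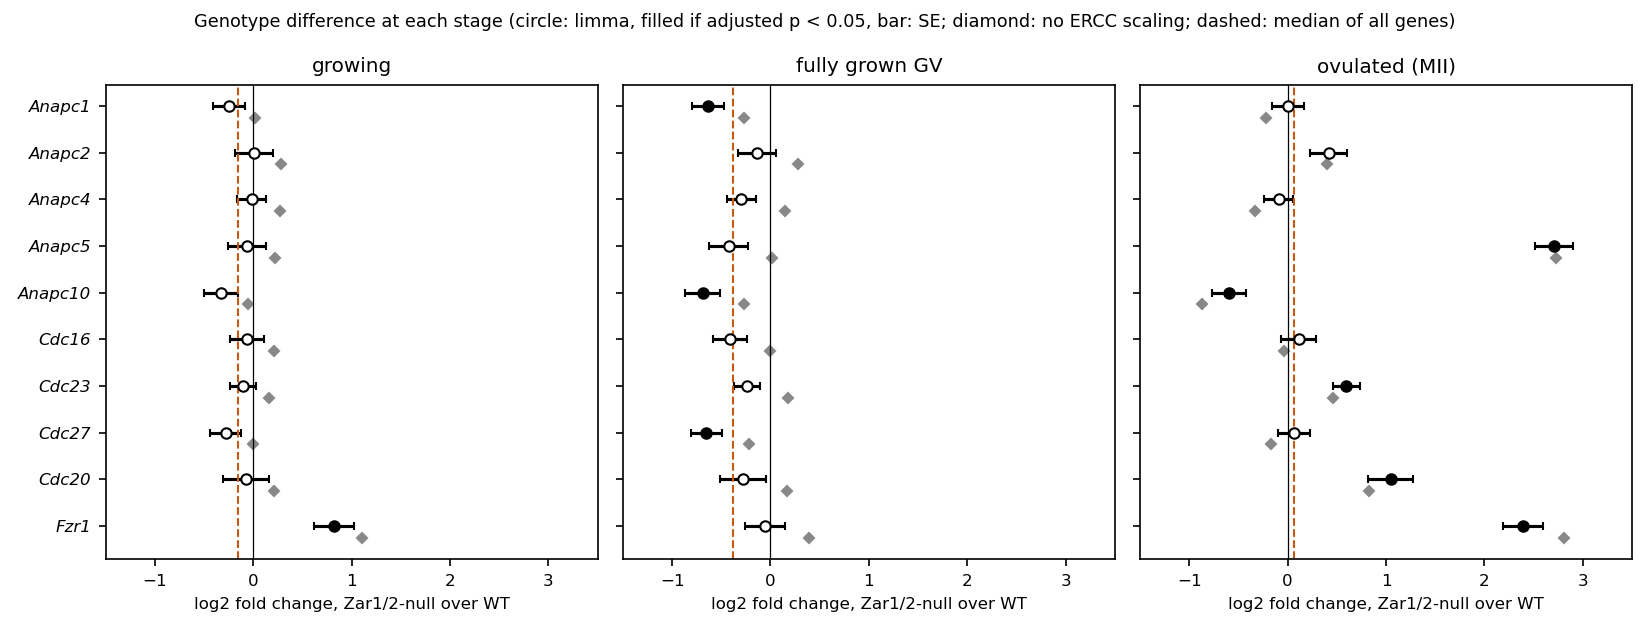
Log2 difference of Zar1/2-null over WT for each gene at the 3 stages, with circles for the limma estimate on ERCC-scaled FPKM + 1 (filled where the adjusted p is under 0.05), bars for its SE, diamonds for the estimate without ERCC scaling and a dashed line for the median of all tested genes. In growing oocytes only Fzr1 is filled, at GV Anapc1, Anapc10 and Cdc27 are filled to the left, and at MII Anapc5, Fzr1, Cdc20 and Cdc23 are filled to the right and Anapc10 to the left.

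The change in these transcripts over maturation was then followed within each genotype. Because cDNA was primed from the poly(A) tail, a change in RNA amount and a change in tail length cannot be told apart. From the GV to the MII stage, 9 of the 10 fell in WT oocytes and none rose, while 93.4% of all genes were called lower and 0.104% higher. Fzr1 fell furthest, from 25.8 and 25.4 FPKM to 0.694 and 1.17 FPKM (27.5-fold). Anapc5 followed, from 39.2 and 31.1 FPKM to 3.11 and 3.21 FPKM (11.1-fold), and Anapc4 from 67.8 and 57.7 FPKM to 5.37 and 6.35 FPKM (10.7-fold). These exceed the median log2 change of all genes, -1.28, by 2.51 for Fzr1, 1.83 for Anapc5 and 1.93 for Anapc4. Cdc16 (7.84-fold) and Anapc2 (7.52-fold) fell by intermediate amounts, and Cdc27 (3.05-fold), Anapc1 (2.79-fold), Cdc23 (2.63-fold) and Cdc20 (2.31-fold) by less. Anapc10 did not pass the test, at 25 and 19.4 FPKM in GV and 20.1 and 15.6 FPKM in MII oocytes (log2 change -0.30, SE 0.17, adjusted p = 0.116). It was called lower without the second WT GV library (-0.48, adjusted p = 0.0389) or without the first WT MII library (-0.47, adjusted p = 0.0437).

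In Zar1/2-null oocytes 7 of the 10 fell over the same step and none rose, against 68.7% and 0.209% of all genes. Anapc4 fell 9.41-fold, from 47.2 and 54.8 FPKM to 5.54 and 5.29 FPKM, and Cdc16 4.98-fold and Anapc2 4.35-fold. Fzr1 fell 2.71-fold, from 23.3 and 26.0 FPKM to 8.43 and 9.77 FPKM. Cdc27 (1.82-fold), Anapc1 (1.68-fold) and Cdc23 (1.32-fold) also fell. The Cdc23 call was lost when any 1 of the null GV or MII libraries was left out (adjusted p from 0.0660 to 0.137) and with group mean ERCC factors (0.0828), and the Anapc1 call without the first null GV (0.0785) or the first null MII library (0.0742). Anapc5 read 20.9 and 31.7 FPKM in null GV oocytes and 25.6 and 26.7 FPKM in null MII oocytes (log2 change 0.02, 95% interval -0.41 to 0.45). Cdc20 read 42.3 and 76.3 FPKM and then 65.4 and 60.8 FPKM (log2 change 0.15, 95% interval -0.37 to 0.66). The null GV libraries stood far apart for Cdc20, and without the second of them Cdc20 was called higher at MII (0.56, adjusted p = 0.0203). Anapc10 read 13.0 and 13.5 FPKM in GV and 12 and 10.7 FPKM in MII (log2 change -0.21, SE 0.17, adjusted p = 0.299).

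The difference between these changes was tested as an interaction. For 5 of the 10 genes the GV-to-MII change was more positive in Zar1/2-null oocytes, and for none more negative, against 33.9% and 0.643% of all genes. The interaction was 3.13 on the log2 scale for Anapc5 (SE 0.28, adjusted p = 8.29e-06), 2.45 for Fzr1 (SE 0.28, adjusted p = 7.23e-05), 1.32 for Cdc20 (SE 0.33, adjusted p = 0.0105), 0.84 for Cdc23 (SE 0.19, adjusted p = 0.00628) and 0.72 for Cdc27 (SE 0.23, adjusted p = 0.0305). For Cdc27 the MII values overlapped between genotypes and the GV values did not. The median over all genes was 0.48. Anapc4, which fell steeply in both genotypes, had an interaction of 0.20 (95% interval -0.26 to 0.67). Without the first WT GV library, 3 interactions were called, and Cdc20 (adjusted p = 0.0505) and Cdc27 (adjusted p = 0.0901) were not. The Cdc27 call was also lost without the second null GV library (0.0738), the first WT MII library (0.105) or the second null MII library (0.102), and with no filter on low genes both Cdc27 (0.0524) and Cdc20 (0.0578) missed the threshold.

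These stage changes depend on the scaling. Without ERCC scaling, 2 of the 10 genes were higher and 5 lower in WT MII than in WT GV oocytes, Anapc10 (1.41) and Cdc20 (0.54) being the higher ones as log2 changes. Of all genes 19.7% were then higher and 47.6% lower. Scaling by library medians gave 5 higher and 4 lower (35.5% and 36.4% of all genes). In null oocytes the counts were 4 higher (Anapc5, Cdc20, Anapc10 and Cdc23) and 3 lower (Anapc2, Anapc4 and Cdc16) without ERCC scaling, against 19.5% and 40.5% of all genes, and 6 and 2 with median scaling, against 33.8% and 30.4%. Only the interactions of Anapc5 (2.71) and Fzr1 (2.42) remained called without ERCC scaling, and they also did so with median scaling (2.58 and 2.34), where Anapc4 and Anapc10 were called with a negative sign. Without ERCC scaling 15.1% of all genes had a positive and 6.46% a negative interaction, and with median scaling 14.6% and 11.2%.

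**Figure D3:**
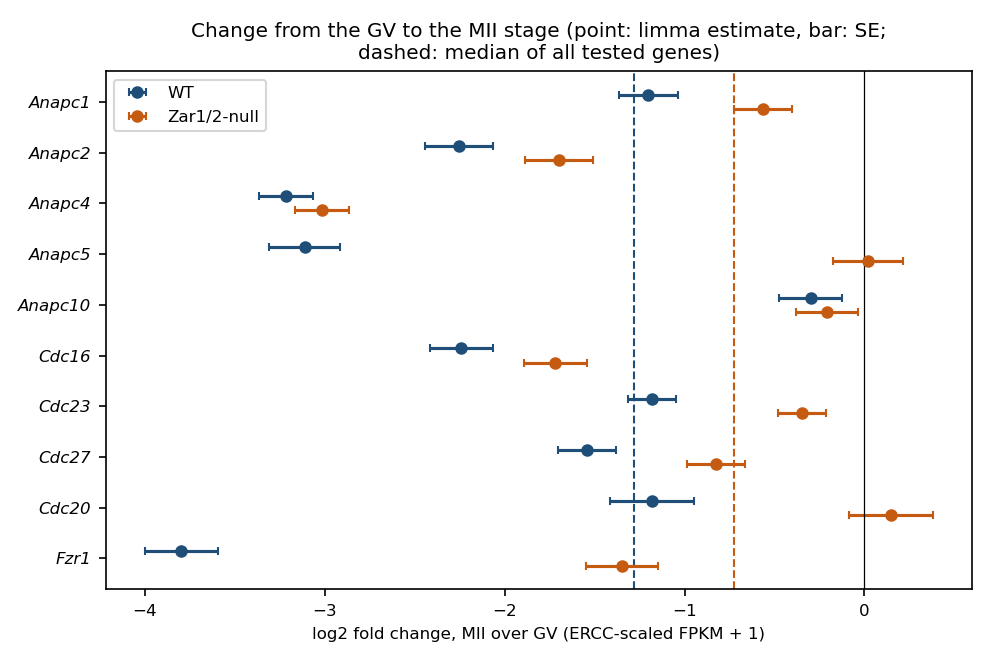
Log2 change from the GV to the MII stage in WT (blue) and Zar1/2-null (orange) oocytes, with bars for the SE and dashed lines for the median of all tested genes in each genotype. The blue and orange points lie far apart for Anapc5 and Fzr1 and nearly together for Anapc4 and Anapc10.

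Values within a library do not depend on the scaling factor, so the make-up of the set was also described as shares of the summed FPKM of the 10 genes. In growing oocytes this sum was 431 ± 33.0 FPKM (WT) and 431 ± 6.52 FPKM (null), 294 ± 27.6 and 230 ± 36.2 FPKM at GV, and 80.6 ± 2.61 and 142 ± 0.489 FPKM at MII. In growing and GV oocytes of both genotypes Cdc20 made up between 20.8% and 29.9% and Anapc4 between 18.5% and 23.1% of the sum. Some shares already differed between genotypes before MII, without overlap. Fzr1 made up 7.56% and 8.96% in WT and 12.5% and 17.3% in null growing oocytes. Its GV shares were 8.23% and 9.25% against 11.4% and 10.2%. Anapc10 made up 6.49% and 5.32% against 5.09% and 4.20% in growing oocytes, and 7.98% and 7.05% against 6.38% and 5.30% at GV. At MII the following shares did not overlap between genotypes. Anapc5 made up 3.95% and 3.89% in the WT libraries and 18.0% and 18.9% in the null libraries, close to the 16.1% to 17.7% of growing oocytes. Anapc10 made up 25.5% and 18.9% in WT and 8.41% and 7.60% in the null. Fzr1 made up 0.881% and 1.41% in WT and 5.93% and 6.90% in the null. Anapc4 was at 6.82% and 7.70% in WT and 3.90% and 3.74% in the null, so its share was low at MII in both.

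Ratios between members, chosen after their values had been seen, show the same libraries in another way. The ratio of Cdc20 to Fzr1, the alternative co-activators, was 3.14 and 2.92 in WT growing oocytes, 2.87 and 2.55 in WT GV oocytes, and 41.0 and 27.2 in WT MII oocytes. In Zar1/2-null oocytes it was 1.91 and 1.34, then 1.81 and 2.93, then 7.76 and 6.22. At MII it was thus 34.1 ± 9.78 in WT against 6.99 ± 1.09 in the null, with no overlap. The ratio of Anapc5 to Anapc4 lay between 0.443 and 0.932 in 10 libraries of the other 5 groups and at 4.61 and 5.05 in the null MII libraries.

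**Figure D4:**
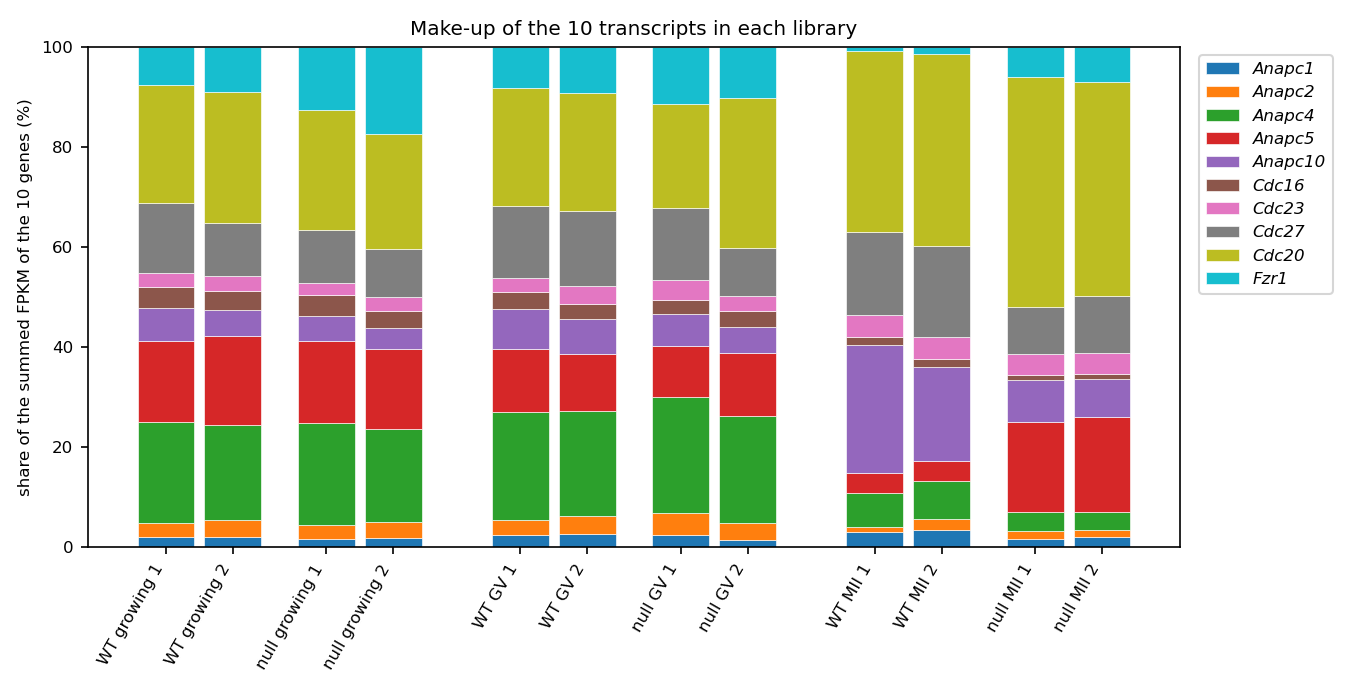
Share of each gene (%) in the summed FPKM of the 10 genes, stacked for each of the 12 libraries, which is free of the ERCC factor. The Anapc5 segments are wider in the growing bars (16.1% to 17.7%) than in the GV bars (10.3% to 12.5%), the WT MII bars have broad Anapc10 segments (25.5% and 18.9%) and thin Anapc5 and Fzr1 segments, and the null MII bars have Anapc5 segments of 18.0% and 18.9%.

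At the GV stage, before maturation, 3 of the 10 genes were lower in the null than in WT (Anapc1, Anapc10 and Cdc27) and none higher by limma, also at an unadjusted p under 0.05. Over all genes 40.6% were called lower and 2.83% higher, and the median log2 difference was -0.38 (-0.35 over the 10 genes). Anapc10 read 25 and 19.4 FPKM in WT and 13.0 and 13.5 FPKM in the null (log2 difference -0.69, SE 0.17, adjusted p = 0.00851). Cdc27 read 44.7 and 40.8 FPKM against 29.4 and 24.5 FPKM (-0.65, SE 0.16, adjusted p = 0.00757), and Anapc1 7.60 and 6.97 FPKM against 5.13 and 3.64 FPKM (-0.64, SE 0.16, adjusted p = 0.00941). In each of these the null libraries lay below both WT libraries, as they did for 6 of the 10 genes and 63.6% of all genes (above for 0 of the 10 and 6.79%). The differences were 0.26 to 0.31 below the median of all genes.

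Other members did not pass at GV. Fzr1 read 25.8 and 25.4 FPKM in WT and 23.3 and 26.0 FPKM in the null (log2 difference -0.05, 95% interval -0.50 to 0.39). For Cdc20 (74.1 and 64.8 FPKM against 42.3 and 76.3 FPKM) and Anapc5 (39.2 and 31.1 FPKM against 20.9 and 31.7 FPKM) the null libraries disagreed with each other and overlapped WT. Anapc4, Cdc16, Cdc23 and Anapc2 had log2 differences between -0.41 and -0.14, with adjusted p between 0.0779 and 0.570. The 3 calls were lost without ERCC scaling and with median scaling (0 called each, all-gene median -0.03 and 0.03, with 7.19% and 8.36% of all genes called higher and 13.5% and 11% lower) and without the first WT GV library, 1 remained (Anapc10) with the 4 GV libraries fitted alone, and 5 were called without the second null GV library (Anapc5, Anapc10, Cdc16, Cdc27 and Cdc20).

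Growing oocytes differed in Fzr1 only, which was higher in the null, and none of the 10 genes was called lower by limma, also at an unadjusted p under 0.05. Over all genes 10.6% were called higher and 24.4% lower. Fzr1 read 30.8 and 40.7 FPKM in WT growing oocytes and 53.4 and 75.4 FPKM in null growing oocytes, which did not overlap (1.80-fold, log2 difference 0.82, SE 0.20, adjusted p = 0.00897). Without ERCC scaling the difference was 1.11 (adjusted p = 0.00750), and Fzr1 was again the only call, beside 14.9% of all genes higher and 12.3% lower. The call was lost without the first WT growing library (0.63, adjusted p = 0.0886) and without the second null growing library (0.58, adjusted p = 0.0954). Cdc20, in contrast, read 96.7 and 119 FPKM in WT and 102 and 101 FPKM in the null (log2 difference -0.08, 95% interval -0.59 to 0.43). The remaining 8 subunits had log2 differences between -0.33 (Anapc10) and 0.01 (Anapc2), with adjusted p between 0.164 and 0.974. The null libraries lay above both WT libraries for 1 of the 10 genes and below for 3 (Anapc1, Anapc10 and Cdc27), against 22.4% and 47.4% of all genes.

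Over growth, from growing to GV oocytes, 2 of the 10 genes fell in WT (Anapc5 and Cdc16) and none rose, against 28.7% and 2.77% of all genes. Anapc5 fell from 66.3 and 80.6 FPKM to 39.2 and 31.1 FPKM (log2 change -1.04, SE 0.20, adjusted p = 0.00430) and Cdc16 from 16.9 and 17.1 FPKM to 11.1 and 8.17 FPKM (-0.77, SE 0.18, adjusted p = 0.00951). In Zar1/2-null oocytes all 10 fell, against 55.9% of all genes called lower and 4.76% higher. The changes ran from -1.41 (Anapc5) and -1.33 (Fzr1) to -0.48 (Cdc23), beside a median of -0.50 over all genes. The WT count was between 1 and 4 when single libraries were left out: 1 without the second WT growing or the second WT GV library, and 4 without either null GV library. Without ERCC scaling, 1 gene was called lower in WT (Anapc5), against 3.23% of all genes lower and 3.66% higher, and 3 in the null (Anapc5, Cdc16 and Fzr1), against 21.3% lower and 14.3% higher. A difference between genotypes in this change was not shown for any of the 10 by limma, while 2.58% of all genes were called with a positive and 11.3% with a negative difference. At an unadjusted p under 0.05, only Fzr1 was more negative in the null (-0.88, SE 0.28, adjusted p = 0.0651).

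Further genes of the pathway were taken from fixed lists. Of 6 other APC/C subunit genes, 5 were higher in Zar1/2-null MII oocytes and none lower, with the same counts without ERCC scaling and with median scaling, and the median log2 difference was 1.61. The all-gene shares called higher were 21.5% with ERCC scaling, 24.6% without it and 24.7% with median scaling, and those called lower 10.3%, 23.4% and 27.6%. Anapc13, a small subunit that steadies the arm, read 1.5 and 2.46 FPKM in WT and 71.9 and 60.6 FPKM in the null (log2 difference 4.51, SE 0.23, adjusted p = 4.85e-08). Anapc15, a subunit tied to the release of checkpoint proteins, read 12.7 and 11.6 FPKM against 99.9 and 75.4 FPKM (2.74, SE 0.17, adjusted p = 2.91e-07). Anapc11, the catalytic RING partner of Anapc2, averaged 1.70 ± 0.349 FPKM in WT and 11.8 ± 0.664 FPKM in the null, while Anapc2 itself did not pass. Anapc16 (9.37 against 19.4 FPKM) and Cdc26 (31.2 against 52.2 FPKM) were the others, and Anapc7, an arm subunit, read 1.45 and 1.93 FPKM against 2.06 and 1.77 FPKM. At the growing and GV stages none of the 6 was called higher and 3 were lower at each, beside 24.4% (growing) and 40.6% (GV) of all genes called lower and 10.6% and 2.83% called higher. Anapc16 averaged 134 FPKM in WT and 73.6 FPKM in null growing oocytes (-0.85, adjusted p = 0.00259), and 100.1 against 66.2 FPKM at GV (-0.60, adjusted p = 0.0141). Anapc7 averaged 30.1 against 19.6 FPKM in growing oocytes (-0.58, adjusted p = 0.0316) and 20.1 against 12.5 FPKM at GV (-0.67, adjusted p = 0.0144). Without ERCC scaling the lower counts were 1 and 0, beside 12.3% and 13.5% of all genes. Cdc26 was then called higher at GV (0.56, adjusted p = 0.0113), as were 7.19% of all genes.

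The ubiquitin-conjugating enzymes of the ligase followed a similar order. Of 3, 2 were higher in null MII oocytes under all 3 scalings. The all-gene shares called higher were 21.5% with ERCC scaling, 24.6% without it and 24.7% with median scaling. Ube2c, which starts ubiquitin chains, read 16.8 and 15.9 FPKM in WT and 43.4 and 30.9 FPKM in the null (1.11, SE 0.18, adjusted p = 0.000670). Ube2s, which extends them, read 24.8 and 25.5 FPKM against 52.4 and 48 FPKM (0.97, SE 0.18, adjusted p = 0.00134). At GV both were lower in the null, at -0.79 for Ube2c (adjusted p = 0.00569) and -0.57 for Ube2s (adjusted p = 0.0223), beside 40.6% of all genes. Neither was called without ERCC scaling. In growing oocytes Ube2c was lower (-0.58, adjusted p = 0.0307), and this call was also lost without ERCC scaling (-0.29, adjusted p = 0.156).

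Of 8 inhibitor and checkpoint genes, 7 were tested, since Usp44 stayed under 1 FPKM. In null MII oocytes 3 were higher and 1 lower, beside 21.5% and 10.3% of all genes. Without ERCC scaling 2 were higher and 3 lower, beside 24.6% and 23.4%. Bub3, a kinetochore protein of the checkpoint that restrains Cdc20, averaged 12.3 ± 0.859 FPKM in WT and 22.6 ± 1.96 FPKM in the null (0.83, adjusted p = 0.00452). Mad2l1bp, which helps to switch that checkpoint off, averaged 16.9 ± 2.80 against 26.7 ± 1.57 FPKM (0.63, adjusted p = 0.00935). Trip13, the ATPase that works with it, was lower at GV (4.78 against 1.65 FPKM, -1.13, adjusted p = 0.000385) and at MII, where all libraries were under 1 FPKM (-0.47, adjusted p = 0.0474). At GV 4 of the 7 were lower, beside 40.6% of all genes, among them Fbxo5 (EMI1), an inhibitor of the ligase (95.1 against 59.3 FPKM, -0.67, adjusted p = 0.0333). Without ERCC scaling 1 of the 7 was lower at GV, beside 13.5% of all genes, and Fbxo5 was not (-0.23, adjusted p = 0.423). In growing oocytes Fbxo5 (-0.80, adjusted p = 0.0188) and Mad2l1, the checkpoint protein that binds Cdc20 (-0.62, adjusted p = 0.0366), were the 2 lower ones, beside 24.4% of all genes. Both calls were lost without ERCC scaling (Fbxo5 -0.51, adjusted p = 0.0549, and Mad2l1 -0.33, adjusted p = 0.115). None of the 7 was called higher at either earlier stage, beside 10.6% (growing) and 2.83% (GV) of all genes. Without ERCC scaling 1 was at each (Mad2l1bp), beside 14.9% and 7.19%.

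Of 25 substrates, 4 were higher and 2 lower at MII, beside 21.5% and 10.3% of all genes. Without ERCC scaling 4 were higher and 8 lower, beside 24.6% and 23.4%. Cyclin B1 (Ccnb1) averaged 344 FPKM in WT and 342 FPKM in the null, and securin (Pttg1) 2547 against 2265 FPKM. Without ERCC scaling Pttg1 was called lower at MII (-0.41, adjusted p = 0.0333). Ccnb1 was lower in null growing oocytes (-0.66, adjusted p = 0.0330) and at GV (-0.71, adjusted p = 0.0203). Pttg1 was lower in null growing oocytes (-0.50, adjusted p = 0.0312). These earlier calls were lost without ERCC scaling (adjusted p = 0.0912, 0.274 and 0.298). Tk1, the thymidine kinase, read 2.86 and 2.44 FPKM in WT and 17.7 and 14.5 FPKM in the null (2.22, SE 0.17, adjusted p = 1.14e-06). Aurkb, a kinase of the chromosomal passenger complex, read 0.824 and 1.33 FPKM against 6.17 and 5.52 FPKM (1.73, SE 0.20, adjusted p = 4.23e-05). Gmnn (geminin, which blocks replication licensing) was lower, at 139 and 114 FPKM against 39.4 and 32.7 FPKM (-1.78, SE 0.18, adjusted p = 1.73e-05), as was Anln (anillin, 15.6 against 11.1 FPKM, -0.46, adjusted p = 0.0421). In growing and GV oocytes 3 substrates were higher and 8 lower at each stage, and without ERCC scaling 5 were higher and 2 lower at each. The background over all genes was 10.6% (higher) and 24.4% (lower) at the growing stage, and 2.83% and 40.6% at GV. Without ERCC scaling it was 14.9% and 12.3% at the growing stage, and 7.19% and 13.5% at GV. Aurkb (0.80, adjusted p = 0.00919, and 0.59, adjusted p = 0.0329) and the licensing factor Cdc6 (0.57, adjusted p = 0.0275, and 0.72, adjusted p = 0.00751) were higher at both of these stages. The spindle genes Dlgap5 (-1.57 in growing oocytes, adjusted p = 0.000177) and Hmmr (-0.95, adjusted p = 0.0139, and -1.15 at GV, adjusted p = 0.00425) were lower, with both Hmmr calls lost without ERCC scaling (adjusted p = 0.0582 and 0.0525). Gmnn was lower in growing oocytes (-0.85, adjusted p = 0.00445) and at GV (-1.55, adjusted p = 0.000115).

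**Figure D5:**
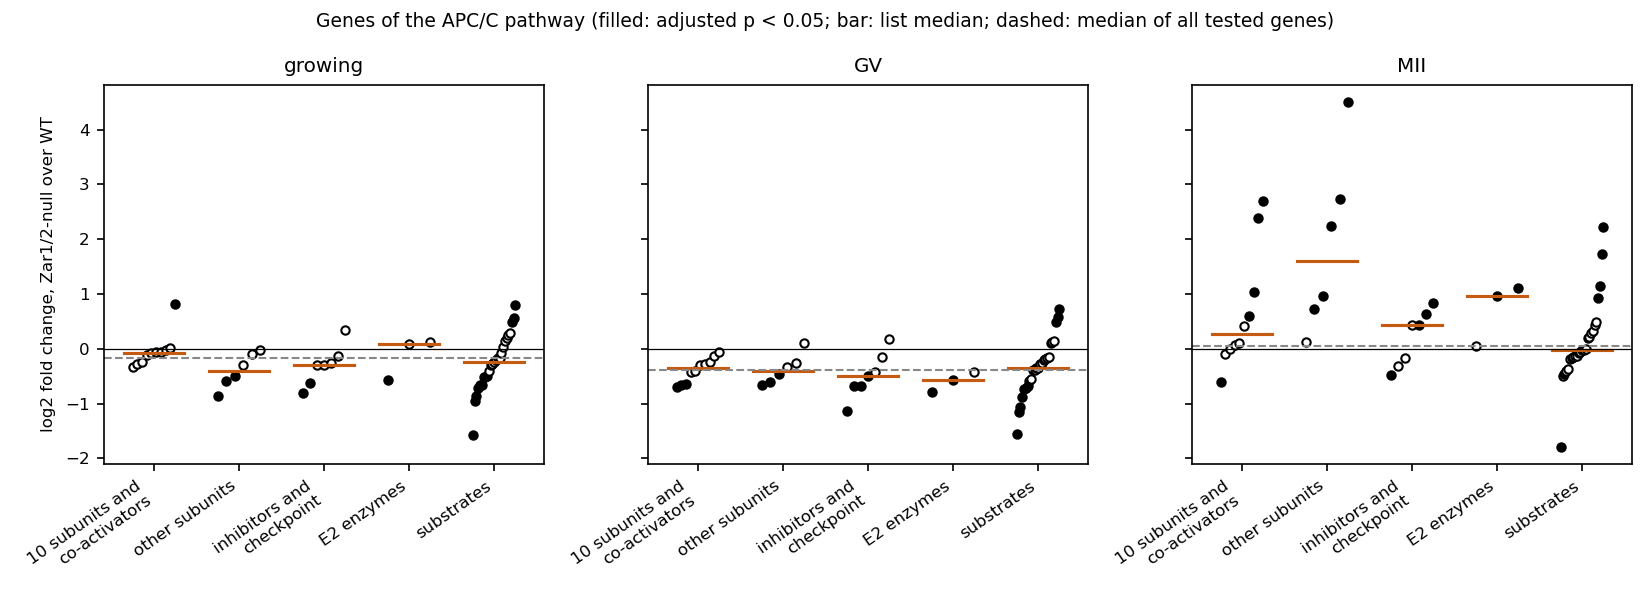
Log2 difference of Zar1/2-null over WT for every tested gene of the APC/C pathway lists at each stage (points, filled where the adjusted p is under 0.05), with bars for list medians and a dashed line for the median of all tested genes. The other subunits stand out at MII, with a median of 1.61 and Anapc13 at 4.51, whereas the substrate median lies at -0.03.

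How alike the members were across the 12 libraries was described by Pearson's r of log2(FPKM + 1), which mostly follows the stages and the scaling that all genes share. Over the 45 pairs r ran from 0.30 (Anapc10 and Fzr1) to 0.99 (Anapc1 and Cdc27), with a median of 0.88. Cdc20 was most like Anapc5 (0.97) and least like Anapc10 (0.39), and Fzr1 was most like Cdc23 (0.96). Among the 4320 genes averaging 10 FPKM or more, those most like Cdc20 were Gfra4 (0.991), Zswim3 (0.991) and Taz (0.988). Gfra4 averaged 23.3 and 23.5 FPKM in WT and null growing oocytes, 12.5 and 11.5 FPKM at GV and 3.63 and 12.7 FPKM at MII. Among those most like Fzr1 were Spint1 (0.993) and AI848285 (0.992). Spint1 averaged 0.292 FPKM in WT and 6.11 FPKM in null MII oocytes. The genes most like the mean of the 10 were Slc6a20a (0.996), Cpt2 (0.994) and 1700024P16Rik (0.994).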

How the data were processed

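The authors mapped 50-bp trimmed reads to mm9 with TopHat2 (2.1.1), computed FPKM with Cufflinks (2.2.1) and deposited 1 table of FPKM values multiplied by an ERCC factor per library. Each factor was recovered here as the number whose removal returns every value to 6 significant digits. Of 23230 genes, the 11502 that reached 1 FPKM in any library were tested, with limma 3.58.1 in R 4.3.3 on log2(FPKM + 1), a coefficient for each group, a trended eBayes step and Benjamini-Hochberg adjustment. The fit was tested on simulated data. No counts were used, so depth per gene and counting error are unknown. Exact zeros made up 30.9% to 38.6% of a library. Named genes were all members, the targeted genes, at most 2 genes per list, direction and stage with the largest called change and libraries that did not overlap, and the 3 genes most like Cdc20, Fzr1 and the mean of the members. A gene and a sequence that these rules select are not reported here. Other genes named from the lists were chosen after their values were seen. The members and lists were chosen with earlier results of these data known. Alternatives were no ERCC scaling, median scaling, group mean factors, other pseudocounts and filters, no trend, replicate number as a block, each stage fitted alone, and leaving out each library. Replicate numbers of the labels are not stated to pair oocytes or females. Both WT growing libraries had a factor of 1, and the factors of the others follow the ERCC read shares of the study's supplement when each is set against the WT growing library of the same number, so the scaling itself ties libraries by number.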

Additional observations from a re-analysis of the deposited data

Results flagged for a closer look

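For 5 of the 10 genes the change from the GV to the MII stage differed between Zar1/2-null and WT oocytes by limma's interaction test, with Benjamini-Hochberg adjusted p-values. The difference was 3.13 on the log2 scale for Anapc5 (adjusted p = 8.29e-06), which fell 11.1-fold in WT and had a log2 change of 0.02 in the null. It was 2.45 for Fzr1 (adjusted p = 7.23e-05), 1.32 for Cdc20 (adjusted p = 0.0105), 0.84 for Cdc23 (adjusted p = 0.00628) and 0.72 for Cdc27 (adjusted p = 0.0305). Anapc5 and Fzr1 were called under all 3 scalings. Cdc20, Cdc23 and Cdc27 were called with ERCC scaling only, with 0.66, 0.29 and 0.05 without it. Over all genes 33.9% were called in this direction.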

How the results depend on the processing

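The values are FPKM from 2 libraries per group without counts, so low transcripts, above all Fzr1 and Anapc2 in WT MII oocytes, rest on an unknown number of reads. Of the single-gene values recomputed under an alternative, 1775 kept their direction and side of the threshold, 159 kept the direction and lost the call, 18 gained a call and 76 changed sign. This tally leaves out the growth comparisons. For the genotype differences it also holds the targeted genes and the pathway genes named for their largest called changes. The scaling also moved the median log2 difference of all genes (over maturation in WT from -1.28 to -0.43 without ERCC scaling and -0.03 with median scaling). The Anapc5, Fzr1 and Cdc20 differences at MII were called under all alternatives that were run, and so were the Anapc5 and Fzr1 interactions.

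Without ERCC scaling the number of the 10 genes called lower was 0 at GV, 2 at MII, 1 over growth in WT and 3 over growth in the null, and over maturation 2 were higher and 5 lower in WT and 4 higher and 3 lower in the null, with 2 positive maturation interactions. With median scaling the same counts were 0, 2, 0 and 3, then 5 and 4, then 6 and 2, with 2 positive and 2 negative interactions. With no filter on low genes 0 were lower at MII and 3 interactions were positive, and with the group mean of the ERCC factor 4 were lower over growth in WT. The cause of these moves was not tested. In the 4 GV libraries alone 1 gene was called lower at GV. Replicate numbers were not stated to pair oocytes or females, although the ERCC factors tie libraries by number, and deviations of same-numbered libraries correlated between -0.11 and 0.19 across groups. With the replicate number as a block, 1 gene (Fzr1) was called with a negative growth interaction where none was without it, and no other count moved by over 1.5 times. In the 4 GV libraries, a crossed pairing of the numbers, chosen after seeing the data, gave 2 genes lower and the uncrossed replicate block gave 0. Over the left-out libraries the number of genes called was 0 to 1 higher for null over WT in growing oocytes, 0 to 5 lower for null over WT at GV, 0 to 1 lower for null over WT at MII, 1 to 4 lower for WT growth, 0 to 1 higher for null maturation, 0 to 1 lower for the growth interaction and 3 to 6 higher for the maturation interaction. The lowest and highest counts at GV came without the first WT GV library (0) and the second null GV library (5), the count of 0 at MII came without the first WT MII library or either null MII library, the 1 gene higher over null maturation came without the second null GV library, and the 1 negative growth interaction came without the first null growing library. A group left with 1 library was assumed to vary like the others. Without ERCC scaling the following log2 differences changed sign, to the values given. In growing oocytes the null against WT difference became 0.015 for Anapc1, 0.27 for Anapc4, 0.22 for Anapc5, 0.21 for Cdc16, 0.16 for Cdc23 and 0.21 for Cdc20. At GV the null against WT difference became 0.28 for Anapc2, 0.15 for Anapc4, 0.014 for Anapc5, 0.17 for Cdc23, 0.17 for Cdc20 and 0.39 for Fzr1. At MII the null against WT difference became -0.22 for Anapc1, -0.039 for Cdc16 and -0.17 for Cdc27. Over maturation in WT the change became 0.24 for Anapc1, 1.41 for Anapc10, 0.34 for Cdc23, 0.14 for Cdc27 and 0.54 for Cdc20. Over maturation in the null the change became 0.29 for Anapc1, 0.81 for Anapc10, 0.63 for Cdc23 and 0.19 for Cdc27. The maturation interaction became -0.49 for Anapc4, -0.60 for Anapc10 and -0.030 for Cdc16. Over growth in WT the change became 0.076 for Anapc1, 0.18 for Anapc10, 0.013 for Cdc23 and 0.083 for Cdc27. Over growth in the null it became 0.028 for Cdc23, which was called lower with ERCC scaling. The growth interaction became 0.014 for Cdc23. With scaling by library medians these did so. In growing oocytes the null against WT difference became 0.25 for Anapc4, 0.20 for Anapc5, 0.19 for Cdc16, 0.14 for Cdc23 and 0.19 for Cdc20. At GV the null against WT difference became 0.35 for Anapc2, 0.23 for Anapc4, 0.093 for Anapc5, 0.066 for Cdc16, 0.25 for Cdc23, 0.25 for Cdc20 and 0.47 for Fzr1. At MII the null against WT difference became -0.28 for Anapc1, -0.10 for Cdc16 and -0.23 for Cdc27. Over maturation in WT the change became 0.84 for Anapc1, 2.05 for Anapc10, 0.95 for Cdc23, 0.78 for Cdc27 and 1.19 for Cdc20. Over maturation in the null the change became 0.75 for Anapc1, 1.30 for Anapc10, 1.10 for Cdc23, 0.68 for Cdc27 and 0.12 for Fzr1. The maturation interaction became -0.095 for Anapc1, -0.64 for Anapc4, -0.75 for Anapc10, -0.17 for Cdc16 and -0.10 for Cdc27. Over growth in WT the change became 0.092 for Anapc1, 0.20 for Anapc10, 0.031 for Cdc23 and 0.10 for Cdc27. Over growth in the null it became 0.092 for Anapc2, 0.086 for Anapc10 and 0.14 for Cdc23, all called lower with ERCC scaling. The growth interaction became 0.096 for Anapc2, 0.062 for Cdc20 and 0.11 for Cdc23. In the comparisons other than growth, leaving out each library in turn also changed signs, with these lowest and highest values. In growing oocytes they were Anapc2 (-0.17 to 0.19), Anapc4 (-0.068 to 0.039), Anapc5 (-0.20 to 0.075), Cdc16 (-0.15 to 0.027) and Cdc20 (-0.23 to 0.070). At GV they were Cdc20 (-0.70 to 0.14) and Fzr1 (-0.13 to 0.022). At MII they were Anapc1 (-0.11 to 0.12), Anapc4 (-0.20 to 0.0096) and Cdc27 (-0.047 to 0.18). Over maturation in the null they were Anapc5 (-0.27 to 0.31) and Cdc20 (-0.27 to 0.56). For the maturation interaction they were Anapc10 (-0.086 to 0.27).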
